A study of Mus musculus with 93 samples.

Results

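Transcripts of 9 genes of the Hedgehog pathway were followed in cardiac progenitor cells of mouse embryos and of stem cell spheroids. The genes were taken by name from the deposited table: the ligand Shh, the receptor Ptch1, the signal transducer Smo, the transcription factors Gli1, Gli2 and Gli3, the ligand-binding inhibitor Hhip, and the co-receptors Gas1 and Boc. They are 9 of the 24514 gene symbols in the table, and all 9 were found.

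All cells came from the genotype Hcn4-GFP; Tbx1-Cre; Ai9, so both populations carried both reporters. GFP+ cells express GFP under Hcn4, a gene of the first heart field, the early progenitors that form the cardiac crescent. RFP+ cells carry the Ai9 label that Tbx1-Cre leaves in a cell and its descendants, and were taken as second heart field cells. Because the label is inherited, an RFP+ cell need not express Tbx1 when sorted. Embryos gave 5 GFP+ and 4 RFP+ libraries. The protocol gives the embryos as E7.75, whereas the titles give embryonic day 8.5. Spheroids at day 5.5, grown from 1 embryonic stem cell line made from blastocysts of these mice, gave 38 GFP+ and 46 RFP+ libraries. Each library holds 10 sorted cells. No label ties a well to an embryo or a differentiation. Thus n is a number of wells, and the p-values measure the spread between wells, which may be partly technical.

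Hedgehog ligand binds Ptch1 with the help of co-receptors such as Boc, Gas1 and Cdon, and this relieves the block that Ptch1 places on Smo. Smo then acts at the primary cilium to favour the activator forms of the Gli factors over their repressor forms. Ptch1, Hhip and Gli1 are themselves induced by the signal in many tissues. In the early heart the ligand comes from neighbouring endoderm and midline, and second heart field progenitors are a known responding population.

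Values are CPM, the reads of a gene relative to all reads of the library after TMM scaling. In embryos, GFP+ libraries held reads of 6189 to 8302 genes and RFP+ libraries of 10263 to 13052, and the part of this gap in the results below was not tested. In these bulk libraries fewer cells that express a gene and less RNA per cell cannot be told apart. Embryo GFP+ cells held the sarcomere gene Tnnt2 at 2113 ± 335 CPM (SD, n = 5), whereas spheroid GFP+ cells held it at 16.2 ± 31.4 CPM (n = 38). The first heart field factor Tbx5 was at 177 ± 102 CPM in embryo GFP+ cells and at 1.06 ± 2.02 CPM in spheroid GFP+ cells. Hcn4 was higher in the GFP+ than in the RFP+ mean in both sources. Markers of other cells moved with the populations. The summed level of 9 endoderm and epithelial markers ran from 13.6 to 678 CPM in RFP+ embryo libraries, where all 9 had reads, whereas 8 of the 9 were at 0 in GFP+ embryo libraries (sum 0 to 24.8 CPM). The sum of 7 blood and endothelial markers reached 1183 CPM in RFP+ and 1.07 CPM in GFP+ embryo libraries. Its median over the RFP+ embryo libraries was 28.1 CPM, and the globin genes Hba-x, Hbb-bh1 and Hbb-y each had reads in 1 of these 4. In spheroids all 4 pluripotency markers were called higher in GFP+ cells (edgeR log2 fold changes -1.11 to -3.55), and their sum ran from 35.1 to 1545 CPM in GFP+ and from 4.22 to 544 CPM in RFP+ libraries. The part of these markers in the differences between populations was not tested. In vitro RFP+ wells filled other plate columns than GFP+ wells, and there the effects of population and of plate column cannot be told apart. Within each population, embryo wells also lay in other plate columns than spheroid wells. Between sources, the effects of source and of plate column thus cannot be told apart either. In embryos, GFP+ wells lay in plate rows A to E and RFP+ wells in rows F to H. There the effects of population and of plate row cannot be told apart.

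The promoters of Ptch1 and Hhip are shown because both genes are textbook Hedgehog targets and both had their highest mean in RFP+ embryo cells. Each runs from 250 bases before to 50 bases after the RefSeq start in GRCm38.p6, 5′ to 3′ on the gene's strand, on the minus strand of the genome. Capitals mark the letters GGGTGG or, on the other strand, CCACCC, the core of the Gli binding motif.
Ptch1, chr13:63565686-63565985: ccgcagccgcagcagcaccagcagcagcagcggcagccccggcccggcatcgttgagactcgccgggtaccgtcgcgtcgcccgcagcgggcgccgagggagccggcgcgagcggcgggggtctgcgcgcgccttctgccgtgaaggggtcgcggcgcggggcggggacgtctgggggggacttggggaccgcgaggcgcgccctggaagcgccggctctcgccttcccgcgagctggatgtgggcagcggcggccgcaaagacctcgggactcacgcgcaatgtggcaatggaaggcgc
Hhip, chr8:80057959-80058258: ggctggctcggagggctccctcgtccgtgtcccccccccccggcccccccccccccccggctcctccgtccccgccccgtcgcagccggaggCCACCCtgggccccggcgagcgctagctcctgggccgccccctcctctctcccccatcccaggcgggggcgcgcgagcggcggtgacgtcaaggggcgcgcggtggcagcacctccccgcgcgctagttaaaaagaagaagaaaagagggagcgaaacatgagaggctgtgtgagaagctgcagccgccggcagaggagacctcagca
The Hhip window held 1 core match and the Ptch1 window held 0. The Ptch1 window lies inside the gene as annotated in GENCODE M21, whose 5′ end is at 63573598. It therefore does not cover that end, and its 0 describes this window only. Of the 6 members with a promoter in the table, 4 held the core (Gli2, Smo, Hhip and Gli3), against 31.5% of 32851 promoters of the same length. The full motif TGGGTGGTC, on either strand, was in 0 of the 6 and in 0.253% of all promoters. The 6 member windows held 62.3 to 76.3% G and C, against a median of 52.7% over all promoters. The part of base composition in the matches was not tested. These matches describe letters and not binding.

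The ligand Shh had no read in any of the 9 embryo libraries. A count of 0 allows up to 1.30 to 3.72 CPM in a GFP+ library and up to 2.11 to 2.53 CPM in an RFP+ library (3 counts, counting error only). In spheroids Shh had reads in 6 of 38 GFP+ and 30 of 46 RFP+ libraries, and the highest library held 16 reads. Its mean was 2.32 ± 2.40 CPM in RFP+ and 0.249 ± 0.827 CPM in GFP+ spheroid cells (two-sided permutation test of log2 CPM, p = 1e-05, the smallest that 100000 resamples can give). These means were 1.03 times and 0.097 times the mean limit of 3 counts per embryo library of the same population. Genes of the node and notochord, where Shh is made in the embryo, also had higher means in RFP+ spheroid cells. T was at 60.8 ± 28.4 CPM in RFP+ and 17.6 ± 18.4 CPM in GFP+ spheroid cells. Foxa2, counted here with the endoderm markers, was at 9.05 ± 6.62 and 2.28 ± 4.04 CPM. The paper also uses Brachyury (T), with Mesp1, to define a gastrulation stage. In RFP+ spheroid cells Noto, Chrd, Nog and Foxj1 averaged 4.37, 5.01, 1.67 and 0.417 CPM, so T made up most of the node sum below. Within RFP+ spheroid libraries Shh had Spearman correlations of 0.36 with T, 0.21 with Noto and 0.08 with Foxa2. Within GFP+ spheroid libraries these were 0.29, 0.09 and 0.46. Of the 5 endoderm and epithelial markers tested in spheroids, Foxa2 and Trh were higher in RFP+ cells, and Epcam, Cdh1 and Cldn6 were higher in GFP+ cells. The summed level of 5 node markers without Shh ran from 14.3 to 140 CPM in RFP+ and from 0 to 80.4 CPM in GFP+ spheroid libraries, from 0.729 to 39.7 CPM in RFP+ embryo libraries, where Noto and Foxj1 were at 0, and from 0 to 49.7 CPM in GFP+ embryo libraries, where only Chrd had reads. Their part in the Shh values was not tested. The other ligands were scarce, with Ihh at or under 0.262 CPM and Dhh at or under 1.15 CPM on average in every group. Exons of Shh overlap 2 antisense gene models, and the strand setting of the counting is not given in the sources used here, so reads of Shh and of these cannot be told apart. The same holds for exon bases that Gli1, Gli3, Hhip and Gas1 share with genes on the opposite strand, among them Arhgap9 beside Gli1.

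**Figure D1:**
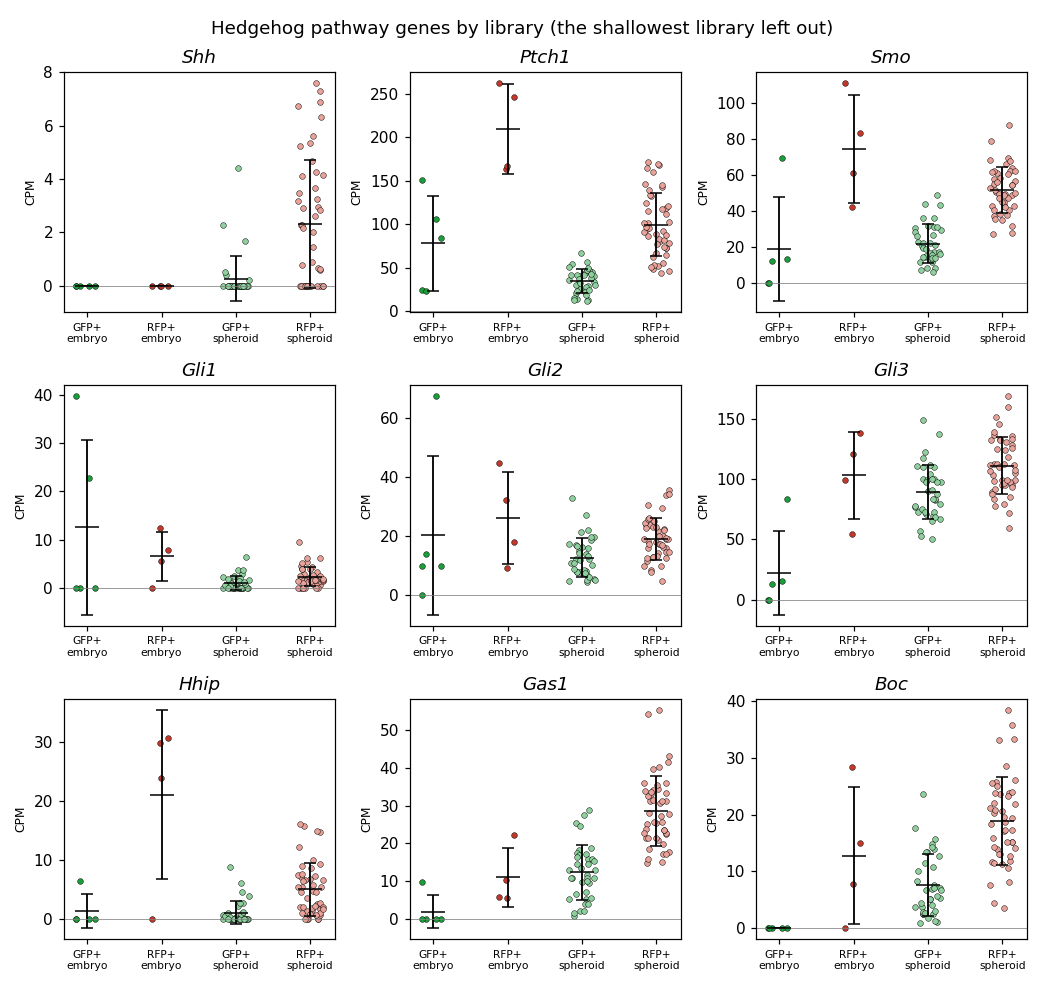
CPM (linear axes) of the 9 genes in each library by group, with the mean and SD as bars. The library of 6288 reads is left out. Shh is at 0 in all 9 embryo libraries, and the 4 RFP+ embryo libraries hold 164 to 263 CPM of Ptch1, overlapping the RFP+ spheroid libraries, which reach 171 CPM.

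Ptch1, the receptor, was the member most widely counted, with reads in all 93 libraries. In embryos the 5 GFP+ libraries held 24.8, 23.8, 84.3, 106 and 151 CPM and the 4 RFP+ libraries 164, 167, 263 and 246 CPM. Every RFP+ library lay above every GFP+ library, as was the case for 11.8% of the 15111 genes with a read in these libraries. The mean was 2.69 times higher in RFP+ cells (210 ± 51.6 against 78.0 ± 54.6 CPM, exact two-sided permutation test, p = 0.0238). Across all genes, however, the edgeR quasi-likelihood test did not call it (log2 fold change 1.36, SE 0.62, adjusted p = 0.299 by Benjamini-Hochberg). In spheroids Ptch1 ran from 11.6 to 147 CPM in GFP+ libraries (median 36.8) and from 44.4 to 171 CPM in RFP+ libraries (median 93.5). The 147 CPM came from 2 reads in the library of 6288 reads, without which the highest GFP+ value was 67.3 CPM. The rise in RFP+ spheroid cells was called (log2 fold change 1.47, SE 0.12, edgeR adjusted p = 7.85e-20), and the RFP+ mean was higher in 8 of 8 plate rows.

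Both populations held more Ptch1 on average in embryos than in spheroids, and the GFP+ difference was the less firm. Without embryo well E12, at 151 CPM, the GFP+ log2 fold change was -0.67 (edgeR adjusted p = 0.0787). The exact permutation test in GFP+ cells gave p = 0.0274, or 0.0592 when scaled by total counts. The embryo mean was 2.07 times the spheroid mean in GFP+ cells and 2.11 times in RFP+ cells (edgeR log2 fold change of spheroid over embryo -0.99, SE 0.31, adjusted p = 0.00544, and -1.10, SE 0.22, adjusted p = 7.58e-05). In the comparison of GFP+ cells the median log2 fold change of all genes tested was 0.67 towards spheroids. Against that median Ptch1 lay further towards embryos, Gli3 and Gas1 lay less far towards spheroids than their own fold changes show, and Smo lay below it. The RFP+ to GFP+ fold of Ptch1 did not differ detectably between sources (difference 0.11 on the log2 scale, SE 0.64, adjusted p = 0.99 from separate edgeR fits).

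Smo, which carries the signal across the membrane, was highest on average in RFP+ embryo cells, as Ptch1 was. GFP+ embryo libraries held 0, 12.5, 13.6, 69.6 and 0 CPM, and RFP+ embryo libraries 42.3, 61.1, 111 and 83.8 CPM. The groups overlapped through the 1 GFP+ library at 69.6 CPM. The difference was not called by edgeR (log2 fold change 1.93, SE 1.47, adjusted p = 0.677), and the exact permutation test gave p = 0.0476, or 0.0635 with a smaller prior count. In spheroids Smo rose in RFP+ cells (51.8 ± 12.8 against 21.6 ± 11.1 CPM, log2 fold change 1.17, SE 0.11, edgeR adjusted p = 3.16e-16), and 27 of 46 RFP+ libraries lay above the highest GFP+ library. RFP+ cells held more Smo in embryos than in spheroids (log2 fold change of spheroid over embryo -0.54, SE 0.19, edgeR adjusted p = 0.0192), but the call was lost without the embryo library at 111 CPM (-0.27). In GFP+ cells the value was 0.33 (SE 0.49, adjusted p = 0.574), and its sign turned with DESeq2's size factors (-0.066).

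The co-receptors Gas1 and Boc were scarce in GFP+ embryo cells. Boc had no read in the 5 GFP+ libraries and 28.4, 7.73, 0 and 15.04 CPM in the 4 RFP+ libraries. This mean of 12.8 CPM was 4.98 times the mean limit of 3 counts per GFP+ library. Without the RFP+ library at 28.4 CPM the mean was 2.95 times that limit. The limit covers counting error only, and RFP+ well G12 also held 0 reads of Boc, beside 39, 11 and 21 in the others. These ratios therefore set no lower bound on the difference. Gas1 had reads in 1 of 5 GFP+ libraries, at 9.69 CPM, and 10.2, 5.62, 5.91 and 22.2 CPM in the RFP+ libraries. Neither passed the edgeR filter in embryos, and the exact permutation tests gave p = 0.0476 for Boc and p = 0.0317 for Gas1. Both rose in RFP+ spheroid cells, Gas1 to 28.6 ± 9.29 from 13.9 ± 12.2 CPM (log2 fold change 1.16, SE 0.15, edgeR adjusted p = 6.62e-11) and Boc to 18.9 ± 7.77 from 7.38 ± 5.52 CPM (1.27, SE 0.18, adjusted p = 1.92e-09). Without the library of 6288 reads, where 1 read of Gas1 stood for 73.3 CPM, the GFP+ spheroid mean of Gas1 was 12.3 ± 7.17 CPM. Against embryos, Gas1 was higher in spheroids in GFP+ cells (log2 fold change 3.02, SE 0.78, edgeR adjusted p = 0.000853) and in RFP+ cells (1.35, SE 0.30, adjusted p = 0.000277). The GFP+ value rests on the 1 embryo library with Gas1 reads, well A12, without which the embryo group was at 0 and the fitted value was 7.54. The GFP+ spheroid mean of Boc was 2.87 times the GFP+ embryo limit, which again covers counting error only (edgeR adjusted p = 5.41e-07 between sources). In RFP+ cells Boc did not pass the test (log2 fold change 0.53, SE 0.40, adjusted p = 0.311). Without the RFP+ embryo library at 28.4 CPM it was called (1.26, edgeR adjusted p = 0.0367), and the exact permutation test over all RFP+ libraries gave p = 0.0238.

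**Figure D2:**
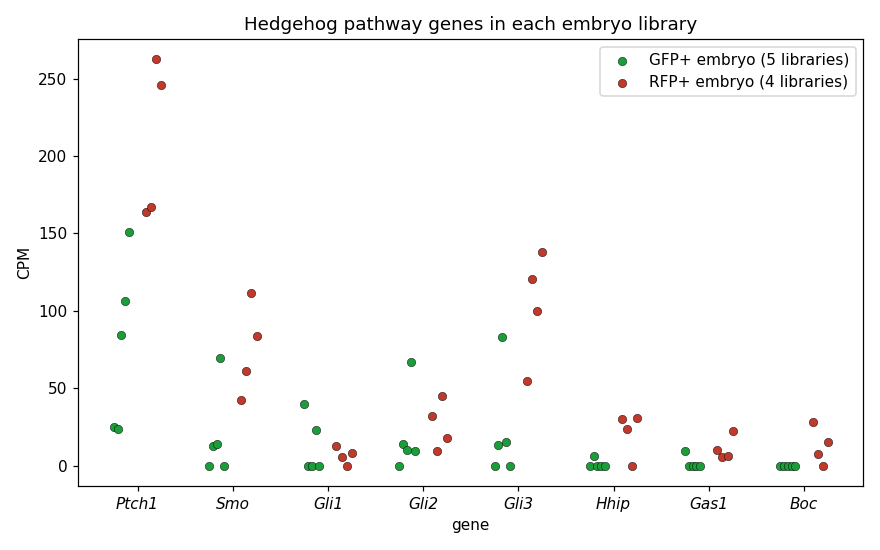
CPM (linear axis) of 8 members in each of the 9 embryo libraries, with Shh left out because it had no read. The 4 RFP+ points of Ptch1 lie above its 5 GFP+ points, whereas all other members overlap.

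Among the transcription factors, Gli3, which acts largely as a repressor without ligand, had the highest level per kilobase of exon in RFP+ embryo cells and in both spheroid populations. GFP+ embryo libraries held 0, 13.0, 83.1, 15.4 and 0 CPM of Gli3 and RFP+ embryo libraries 54.6, 121, 99.6 and 138 CPM, and 3 of the 4 RFP+ libraries lay above every GFP+ library. The exact permutation test gave p = 0.0317, and edgeR did not call the difference (log2 fold change 2.13, SE 1.41, adjusted p = 0.588, and 3.80, adjusted p = 0.146, without the GFP+ library at 83.1 CPM). In spheroids the difference was small but called, at 111 ± 23.6 CPM in RFP+ and 89.0 ± 22.3 CPM in GFP+ cells (log2 fold change 0.28, SE 0.07, edgeR adjusted p = 0.00031). Gli3 was 3.99 times higher in GFP+ spheroid than in GFP+ embryo cells (log2 fold change 2.20, SE 0.44, edgeR adjusted p = 2.41e-05), whereas in RFP+ cells the log2 fold change was 0.09 (SE 0.17, adjusted p = 0.706). Without the GFP+ embryo library at 83.1 CPM the value in GFP+ cells was 3.56. The difference between the embryo and the spheroid fold was -1.85 on the log2 scale (SE 1.41, adjusted p = 0.774), and the interaction term of 1 edgeR fit over the 4 groups called it (-1.98, adjusted p = 1.31e-05).

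Gli2, the main activator, was at 0, 13.8, 9.92, 67.2 and 9.62 CPM in GFP+ embryo libraries and at 32.1, 9.14, 44.7 and 17.9 CPM in RFP+ embryo libraries. These groups overlapped over most of their range (log2 fold change 0.34, SE 1.45, edgeR adjusted p = 0.977). In spheroids Gli2 rose from 12.3 ± 6.82 CPM in GFP+ to 19.0 ± 7.02 CPM in RFP+ cells (log2 fold change 0.55, SE 0.14, edgeR adjusted p = 0.000451). Between sources it was not called in GFP+ cells (-0.54, SE 0.44, adjusted p = 0.285) or in RFP+ cells (-0.46, SE 0.29, adjusted p = 0.224), under the main settings. In GFP+ cells it was called, higher in embryos, with DESeq2 (-0.95, adjusted p = 0.0509), with DESeq2's size factors in edgeR (-0.94, adjusted p = 0.0449) and without embryo well A12 (-0.92, adjusted p = 0.042), whereas without the embryo library at 67.2 CPM the value was 0.71 (adjusted p = 0.206). Gli1, a target as well as a factor of the pathway, was scarce. It had 39.8, 0, 0, 22.9 and 0 CPM in GFP+ embryo libraries and 12.4, 5.62, 0 and 7.88 CPM in RFP+ embryo libraries, and the groups overlapped (edgeR log2 fold change -0.94, SE 1.81, adjusted p = 0.926). In spheroids Gli1 had reads in 19 of 38 GFP+ and 39 of 46 RFP+ libraries, at 0.91 ± 1.39 and 2.22 ± 1.97 CPM (permutation test, p = 0.00015). Between sources Gli1 did not pass the edgeR filter in the main fits. Its mean was higher in embryos in GFP+ cells (12.5 against 0.91 CPM) and in RFP+ cells (6.47 against 2.22 CPM). The exact permutation tests gave p = 0.023 and p = 0.041, or 0.103 and 0.172 with a smaller prior count. DESeq2 called both, with log2 fold changes of spheroid over embryo of -3.88 (adjusted p = 0.00273) and -1.59 (adjusted p = 0.0545).

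Hhip, which binds ligand and limits the signal, had reads in 1 of 5 GFP+ embryo libraries, at 6.49 CPM. RFP+ embryo libraries held 29.9, 23.9, 0 and 30.8 CPM, so 3 of 4 lay above every GFP+ library (exact permutation test, p = 0.0873). In spheroids it had reads in 16 of 38 GFP+ and 41 of 46 RFP+ libraries, at 0.97 ± 1.95 and 5.03 ± 4.51 CPM (permutation test, p = 1e-05). RFP+ cells held more Hhip in embryos than in spheroids (log2 fold change of spheroid over embryo -2.09, SE 0.60, edgeR adjusted p = 0.00459), and the exact permutation test of this difference moved from p = 0.0265 to 0.126 with a smaller prior count.

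**Figure D3:**
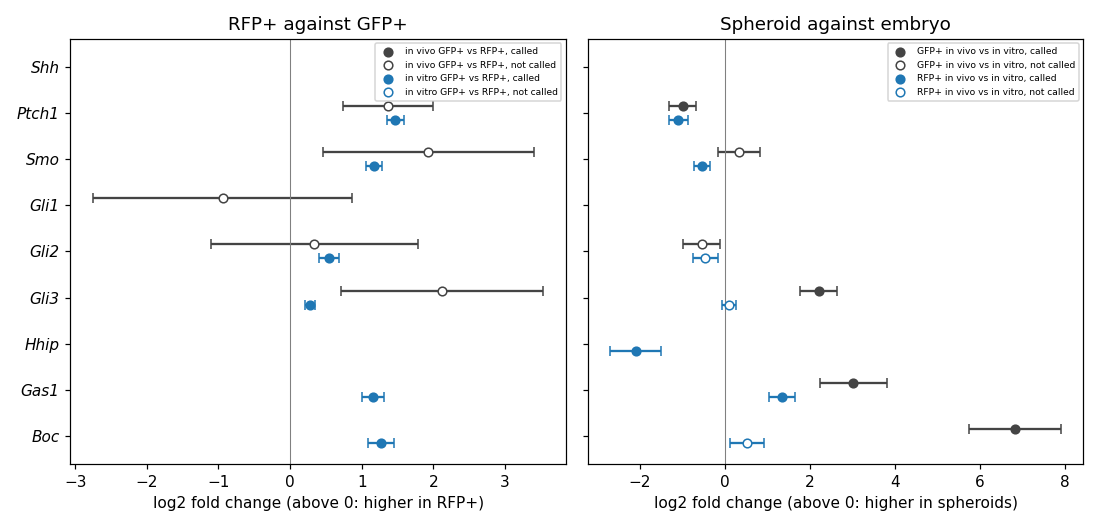
Log2 fold changes (linear axis) from edgeR, with the SE derived from the F statistic, for the members that passed the filter. Left, RFP+ over GFP+ cells in embryos (grey) and spheroids (blue), and right, spheroids over embryos in GFP+ (grey) and RFP+ (blue) cells. Filled points passed an adjusted p of 0.1. The 6 spheroid points on the left are filled and lie above 0, and the 5 embryo points are open.

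Counted together, 5 members passed the filter in embryos and 0 were called between GFP+ and RFP+ cells, where edgeR called 10.1% of 8503 genes. Without adjustment 1 of the 5, Ptch1, had p = 0.0479. DESeq2 called 1 of 8 (Boc, adjusted p = 0.0248), where it called 17.7% of 10967 genes. In spheroids 6 members passed the filter and 6 were higher in RFP+ cells, where 37.8% of 9940 genes were called in that direction and 77.9% in either. The median log2 fold change was 1.17 over the 6 and -0.02 over all genes tested. Between sources, 4 of 6 members were called in GFP+ cells, where 68.0% of 11822 genes were, and 4 of 7 in RFP+ cells, where 42.6% of 11147 genes were. The difference between the embryo and spheroid folds could be computed for 4 members and was called for 0, where 5.26% of 8182 genes were called, and the interaction term of 1 edgeR fit called 3 of 8 (Gli3, Gas1 and Boc), where it called 54.4% of 12655 genes. The comparisons between sources share libraries with those between populations. In all, 35 permutation tests were made on the members, and their p-values are not adjusted.

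Levels of different genes were set side by side per kilobase of exon in GENCODE M21. In RFP+ embryo cells Ptch1 (14.8 ± 3.64 CPM per kb), Smo (13.3 ± 5.31) and Gli3 (10.8 ± 3.77) were close, and their SD ranges overlapped. In RFP+ spheroid cells the order was Gli3 (11.6 ± 2.47 CPM per kb), Gas1 (9.67 ± 3.14), Smo (9.22 ± 2.28) and Ptch1 (7.02 ± 2.58). In GFP+ spheroid cells Gli3 stood at 9.29 ± 2.32 CPM per kb, above Gas1 (4.70 ± 4.11), Smo (3.85 ± 1.98) and Ptch1 (2.66 ± 1.59).

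Other pathway genes were described by lists. Of 4 further receptor genes, 3 passed the filter in embryos. There 1 was higher in RFP+ and 1 in GFP+ cells, where edgeR called 10.1% of 8503 genes. Cdon, a co-receptor related to Boc, had no read in the GFP+ libraries and 25.7 ± 16.4 CPM in RFP+ embryo cells (edgeR adjusted p = 0.0148). Gpc3, a surface proteoglycan, was higher in GFP+ embryo cells (log2 fold change -1.43, SE 0.27, adjusted p = 0.00665) and higher in RFP+ spheroid cells (0.61, SE 0.07, adjusted p = 1.56e-12). In spheroids 3 passed and 3 were called, where 77.9% of all genes were. Cdon rose in RFP+ cells (1.06, SE 0.17, adjusted p = 2.69e-08) and Lrp2 was higher in GFP+ cells (-0.72, SE 0.27, adjusted p = 0.0127).

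Of 14 genes that Hedgehog signalling induces in some tissue, 8 passed the filter in embryos. There edgeR called 10.1% of 8503 genes in either direction, 528 of them higher in RFP+ cells. Of the 8 genes, 2 were higher in RFP+ cells. These were Foxc2 (no read in GFP+ and 19.7 ± 8.35 CPM in RFP+ cells), which is also among the second heart field markers used here, and the cyclin gene Ccnd2 (log2 fold change 1.43, SE 0.43, edgeR adjusted p = 0.0637). In spheroids 7 passed, of which 6 were higher in RFP+ cells, where 37.8% of all genes were, led by Foxc2 (5.56, SE 0.27), Mycn (2.16, SE 0.10), Foxa2 (1.88, SE 0.37) and Ccnd1 (1.37, SE 0.11), and 1, Ccnd2, was higher in GFP+ cells (-0.38, SE 0.09). Ccnd2 thus had opposite signs in embryos and spheroids.

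Of 18 genes that act between Smo and Gli, 13 passed in embryos, where edgeR called 10.1% of all genes tested. Of these 13, 1 was called, Evc2, higher in RFP+ cells (edgeR adjusted p = 0.0148). In spheroids 10 passed, with 4 higher in RFP+ cells and 2 higher in GFP+ cells, against 77.9% called over all genes. Sufu, which holds Gli factors back (0.96, SE 0.13), and the protein kinase A subunit gene Prkaca (0.86, SE 0.09) were higher in RFP+ cells, and Btrc, of the complex that marks Gli proteins for processing, was higher in GFP+ cells (-0.43, SE 0.09). Of 19 genes of the primary cilium, 16 passed in embryos and 0 were called by edgeR, against 10.1% of all genes tested. In spheroids 18 passed, with 7 higher in RFP+ cells and 5 in GFP+ cells. Over all genes tested, 37.8% were called higher in RFP+ cells and 77.9% in either direction. The largest changes in this list were those of Wdr35 (-1.65, SE 0.09) and Arl13b (-1.04, SE 0.14). Of 5 genes for ligand release, 3 passed in embryos and 2 in spheroids. In either, 0 were called, against 10.1% of all genes tested in embryos and 77.9% in spheroids.

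Likeness to Ptch1 was ranked by Spearman correlation of log2 CPM over the 38 GFP+ and the 46 RFP+ spheroid libraries, among 8762 other genes with a mean of at least 10 CPM there. The genes most like it included Rbms1 (mean of the 2 correlations 0.40), Kin (0.39), Prpf4 (0.37) and Strap (0.36). Of the 5 members that reached this mean (Smo, Gli2, Gli3, Gas1 and Boc), Gli3 ranked first of them, at 766 (0.14). Among members under this mean, Hhip had Spearman correlations of CPM with Ptch1 of 0.38 in RFP+ and -0.07 in GFP+ spheroid libraries. Those of Gli1 were 0.15 and -0.11, and those of Shh 0.002 and 0.15. All libraries of a population share its plate columns, and these values are descriptions.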

How the data were processed

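RNA of 10 sorted cells per well was sequenced, and the authors deposited 1 table of read counts for 93 libraries. Per the labels and the study's methods, reads were trimmed with Trimmomatic 0.36, mapped to mm10 with HISAT2 2.0.4 and counted with featureCounts 1.5.2, and the deposited counts are not normalized. The annotation and strand setting are not given in the sources used here. Groups were taken from the sample titles, and 0 columns were left unmapped. Depth was 712732 to 2525460 reads in embryo libraries and 6288 to 5658882 in spheroid libraries.

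Each comparison was fitted separately across all genes in R 4.3.3 with edgeR 4.0.16 (filterByExpr with a minimum count of 10, minimum total of 15 and minimum proportion of 0.7, TMM, quasi-likelihood F-test, Benjamini-Hochberg, adjusted p under 0.1). The SE of an edgeR log2 fold change was derived as its absolute value over the square root of the F statistic. The difference between the embryo and spheroid contrasts used these separate standard errors with 7 degrees of freedom. Members were also tested on log2 CPM (prior count 2) by two-sided permutation, exact where a group had fewer than 10 libraries (126 splits within embryos). DESeq2 1.42.0, other size factors, no filter, a stricter threshold, plate row as a covariate, and left-out or summed libraries were the alternatives. RFP+ spheroid wells of plate columns 3 and 4 in 7 rows were close to each other (chi-square per degree of freedom 1.37 to 2.39, against 2.68 or more in other pairs) and were counted separately. The scripts were tested on simulated data. All 9 members are named, and at most 4 called genes of each pathway list per comparison of GFP+ with RFP+ cells. The members, lists and tests were chosen with earlier results of these data known. Gene positions and exon lengths are from GENCODE M21 (GRCm38, the assembly of mm10), and promoters from RefSeq. Of the 5 genes that the rule on likeness to Ptch1 names, 1 is not reported here.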

Additional observations from a re-analysis of the deposited data

Results flagged for a closer look

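In 5 of 15 sets of embryo values (1 member in 1 population), 1 library stood far from the others of its group. The criterion marks about 1 in 20 groups by chance where values are continuous, a rate that does not apply to groups with many values at 0. All 5 were in GFP+ embryo cells. Well D12 held 69.6 CPM of Smo and 67.2 CPM of Gli2, and well C12 held 83.1 CPM of Gli3. Well B12 held 6.49 CPM of Hhip and well A12 held 9.69 CPM of Gas1, each with the other 4 libraries at 0, in which case any value above 0 meets the criterion.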

How the results depend on the processing

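In embryos, DESeq2 called 1936 of 10967 genes and edgeR without a filter called 2000 of 15111, against 858 of 8503. Each called 1 member (Boc) against 0, and leaving out single embryo libraries gave 0 to 1, the 1 (Boc) without RFP+ well G12. Boc did not pass the filter in the main fit or without any other single library, so there it was not tested. Well G12 is the RFP+ embryo library with 0 CPM of Boc. In spheroids, no filter called 13109 genes against 7747, and the 6 members called under the main settings stayed called under every alternative run. The interaction term of 1 edgeR fit called 3 members (Gli3, Gas1 and Boc) against 0. Between sources in RFP+ cells, leaving out single embryo libraries gave 5 to 7 members called against 4, with 7 without well G11 (where 4426 of 11426 genes were called). The sets of members tested differed, so these counts cannot be set side by side. Shh, with no embryo read, was tested and called in each of these runs but did not pass the filter in the main fit. The RFP+ spheroid mean of Shh was only 1.03 times the mean limit of 3 counts per RFP+ embryo library. Among these runs, Gli1 was tested and called, higher in embryos, only without G11 and without G12. Log2 fold changes near 0 changed sign. Gli2 in embryos ran over left-out libraries from -0.036 (without RFP+ well G12) to 1.54 (without GFP+ well D12). Between sources in GFP+ cells, Gli2 ran over left-out libraries from -0.92 (without well A12, now called) to 0.71 (without well D12), and was called with DESeq2 (-0.95) and with its size factors (-0.94). Smo there ran from -0.047 (without well A12) to 1.85 (without well D12, now called), and was -0.066 with DESeq2 and -0.066 with its size factors in edgeR. Gli3 between sources in RFP+ cells ran from -0.12 (without well F12) to 0.26 (without well H11). These 4 were not called under the main settings, and the causes were not tested. DESeq2's size factors moved the median log2 fold change of all genes between sources in GFP+ cells from 0.67 to 0.22 (5710 and 2326 genes higher in spheroids and embryos became 4687 and 3473), and in embryos from 0.09 to -0.04. No paired analysis was possible because the groups share no replicate numbers. With 5 and 4 libraries of 10 cells, and with members at 0 reads in many, embryo differences had wide errors, and Shh, Gli1 and Hhip rest on few reads.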
